A study of Mus musculus with 4 samples.

Results

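Processed pseudogenes with many reads were compared between wild-type (WT) and Npac knockout (KO) mouse embryonic stem cells (mESCs). Members were the genes annotated as processed or transcribed processed pseudogenes that held at least 1000 reads summed over 4 libraries and whose symbol did not start with Rpl, Rps or Ftl. Of 56748 annotated genes, 10299 were processed pseudogenes, 6377 of these had 0 reads in every library, 165 reached the limit of reads, and 124 remained after the 41 with those symbols were left out. The members were chosen by the summed reads, so their abundance is a description and not a finding. Just inside the limit stood Gm11993 and Gm11585 with 1025 reads each, and just outside it stood Gm7143 with 999 and Gm15590 with 990.

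The study measured RNA by paired-end sequencing in E14 cells, a mouse ES cell line. The WT1 and WT2 libraries came from unedited E14 cells, and the KO1 and KO2 libraries from E14 cells in which Npac (symbol Glyr1, a reader of histone H3 trimethylated at lysine 36) was disrupted with CRISPR/Cas9 guides against exon 3 and puromycin selection. All cells were grown without feeders on gelatin in medium with serum and leukemia inhibitory factor. The study describes 2 KO clones, nothing says that the WT libraries came from separate cultures, and the p-values therefore measure only the spread between these 2 libraries per genotype.

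A processed pseudogene is a copy of a messenger RNA that was reverse transcribed and inserted back into the genome by the LINE-1 machinery. It therefore lacks the introns and usually the promoter of its parent gene, and copies of housekeeping and germline-expressed messages are the most common. Recent copies are nearly identical to the parent, so a short read can match both, and counts of parent and copy are uncertain where the counting may have split reads between them. How reads with several matches were treated is not given in the sources used here.

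The parent was named by the symbol for 26 members (Ndufs5-ps for Ndufs5, for example) and by sequence alone for 96, as the protein-coding transcript with the best match of at least 90% identity over at least 60% of the copy. No parent was matched for 2810025M15Rik and Gm6284. For 13 members at least 1 further protein-coding gene met these limits. The 122 pairs held 106 different parents, and 30 members matched a ribosomal protein gene although their symbols do not say so. The median identity of the 122 was 99.5%, and 21 copies had no difference from the parent over the aligned length. In 71 the longest open reading frame, taken in any frame, was at least 95% of the parent's coding length. Whether it was the parent's frame was not tested. To show how little separates the copies from their parents, the stretch of 150 bases (the length of 1 read) with the most differences inside the parent's coding sequence is given for some of the pairs on which the results turn, with differing bases in capitals. The sequences run 5′ to 3′ and were read by transcript from GENCODE vM21, which is built on GRCm38.

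The first set holds copies with fewer reads in KO, matched to the ribosomal stalk protein Rplp0, the constitutive chaperone Hspa8, the complex I subunit Ndufs5, the proton pump subunit Atp6v0c and the pluripotency-associated Tdgf1 and Zfp42.
Gm8730: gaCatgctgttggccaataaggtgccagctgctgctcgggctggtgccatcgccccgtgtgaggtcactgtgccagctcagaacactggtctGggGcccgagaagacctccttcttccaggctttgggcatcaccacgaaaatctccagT
Rplp0: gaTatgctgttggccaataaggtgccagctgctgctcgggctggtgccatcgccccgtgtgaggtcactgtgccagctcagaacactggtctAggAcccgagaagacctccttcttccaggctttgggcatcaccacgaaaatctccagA
Gm15459: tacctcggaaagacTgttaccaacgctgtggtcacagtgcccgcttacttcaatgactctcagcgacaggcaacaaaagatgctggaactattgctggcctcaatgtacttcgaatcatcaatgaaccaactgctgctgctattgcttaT
Hspa8: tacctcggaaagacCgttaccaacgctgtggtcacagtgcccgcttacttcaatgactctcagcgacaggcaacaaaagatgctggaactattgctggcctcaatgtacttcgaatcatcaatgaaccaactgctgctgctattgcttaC
Ndufs5-ps: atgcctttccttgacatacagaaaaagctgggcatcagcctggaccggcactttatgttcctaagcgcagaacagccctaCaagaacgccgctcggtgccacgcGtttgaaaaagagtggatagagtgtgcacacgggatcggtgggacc
Ndufs5: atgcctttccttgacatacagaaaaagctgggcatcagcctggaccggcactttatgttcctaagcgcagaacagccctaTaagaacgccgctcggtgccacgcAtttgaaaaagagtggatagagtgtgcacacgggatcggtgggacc
Atp6v0c-ps2: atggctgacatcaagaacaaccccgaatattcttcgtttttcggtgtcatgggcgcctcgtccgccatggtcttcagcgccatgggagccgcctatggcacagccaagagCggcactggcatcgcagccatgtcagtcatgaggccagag
Atp6v0c: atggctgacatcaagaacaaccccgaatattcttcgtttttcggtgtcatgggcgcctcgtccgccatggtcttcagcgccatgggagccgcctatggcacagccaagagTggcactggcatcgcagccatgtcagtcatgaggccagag
Tdgf1-ps1: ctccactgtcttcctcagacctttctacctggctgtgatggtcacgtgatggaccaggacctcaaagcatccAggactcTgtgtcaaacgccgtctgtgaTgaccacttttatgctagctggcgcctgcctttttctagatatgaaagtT
Tdgf1: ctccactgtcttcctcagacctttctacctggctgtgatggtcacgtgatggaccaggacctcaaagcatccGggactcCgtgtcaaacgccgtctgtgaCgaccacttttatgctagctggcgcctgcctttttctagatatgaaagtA
Zfp42-ps1: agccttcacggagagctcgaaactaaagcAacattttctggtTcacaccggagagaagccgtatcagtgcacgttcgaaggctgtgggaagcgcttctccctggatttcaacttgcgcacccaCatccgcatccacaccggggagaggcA
Zfp42: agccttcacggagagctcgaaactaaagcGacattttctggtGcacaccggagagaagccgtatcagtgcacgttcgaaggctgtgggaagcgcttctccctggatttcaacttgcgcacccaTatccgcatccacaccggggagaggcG
In these stretches, Gm8730, Tdgf1-ps1 and Zfp42-ps1 each differed from the parent at 4 bases, Gm15459 and Ndufs5-ps at 2, and Atp6v0c-ps2 at 1.

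The second set holds copies with more reads in KO, matched to the RNA helicase Eif4a1, the initiation factor subunit Eif2s2 and the nucleolar protein Npm1.
Eif4a-ps4: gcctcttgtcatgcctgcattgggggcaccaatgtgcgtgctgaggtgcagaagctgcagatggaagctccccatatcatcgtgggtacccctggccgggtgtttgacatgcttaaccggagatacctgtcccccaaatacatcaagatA
Eif4a1: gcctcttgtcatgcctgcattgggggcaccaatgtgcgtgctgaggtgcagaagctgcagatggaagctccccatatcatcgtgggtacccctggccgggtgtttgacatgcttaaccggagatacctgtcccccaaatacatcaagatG
Gm9892: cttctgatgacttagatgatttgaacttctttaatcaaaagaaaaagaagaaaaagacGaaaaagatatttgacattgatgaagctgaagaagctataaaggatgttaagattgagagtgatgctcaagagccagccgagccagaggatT
Eif2s2: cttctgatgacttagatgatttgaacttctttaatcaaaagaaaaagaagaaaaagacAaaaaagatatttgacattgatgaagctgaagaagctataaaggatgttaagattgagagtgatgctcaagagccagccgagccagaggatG
Gm9118: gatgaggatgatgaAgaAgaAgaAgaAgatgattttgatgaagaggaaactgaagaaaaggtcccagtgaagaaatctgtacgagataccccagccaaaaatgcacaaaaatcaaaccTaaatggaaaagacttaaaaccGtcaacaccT
Npm1: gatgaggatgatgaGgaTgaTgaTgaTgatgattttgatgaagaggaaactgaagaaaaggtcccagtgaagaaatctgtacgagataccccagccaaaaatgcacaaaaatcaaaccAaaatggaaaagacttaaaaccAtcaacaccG
Eif4a-ps4 differed from its parent at 1 base of this stretch, Gm9892 at 2 and Gm9118 at 8.

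Across the 124 members, 18 were higher and 39 lower in KO, and 67 did not pass the test. A member was called at an adjusted p below 0.05 and a fold change over 1.5 in edgeR's quasi-likelihood test across all 18157 genes tested. Over all genes tested the same rule called 11% higher and 10.7% lower, against 14.5% and 31.5% of the members. Over the 991 processed pseudogenes tested it called 7.87% higher and 15.5% lower. The median log2 difference, KO minus WT, was −0.16 for the members and 0.0015 for all genes tested. In 55 members both KO libraries lay below both WT libraries, in 42 above, and in 27 the genotypes overlapped, against 32.6% below and 33.2% above over all genes tested. Leaving out a KO library gave 8 higher members in either case, and 30 lower without KO1 and 25 lower without KO2. Over all genes the same fits called 4.4% higher and 4.26% lower without KO1, and 4.31% and 4.28% without KO2. With each library left out in turn, 7 of the higher and 24 of the lower members kept their call each time.

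**Figure D1:**
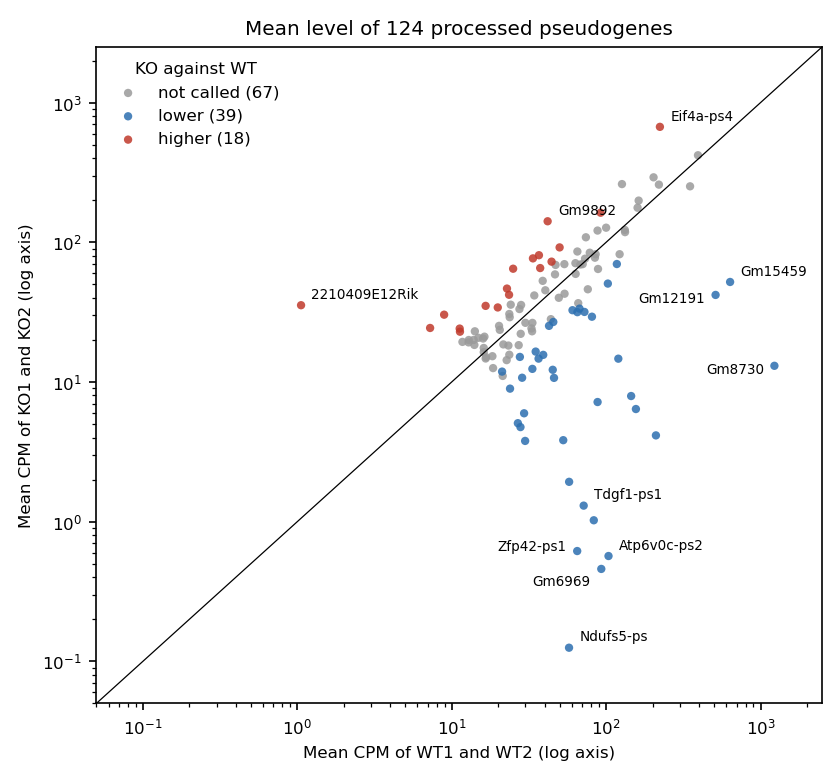
Mean CPM (reads scaled to the size of each library) of the WT libraries (x axis) and KO libraries (y axis) on log axes, 1 point for each of 124 members, with the line of equal values and colors for the call. The 39 lower members extend down to below 1 CPM in KO, while most of the 18 higher members stay near the line and 2210409E12Rik stands apart above it.

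The limit of 1000 reads affects these counts. For 43 members, doubling the reads of the genotype with fewer reads would not have reached the limit, so such members entered through 1 genotype. The limit built in a difference for the strongly one-sided ones. Others held similar reads in both genotypes, such as Gm11585, and 12 of the 43 were not called. They held 26 of the lower and 5 of the higher calls, and these carry no weight as support for a direction. The 43 include all 12 members with the largest falls called, and 2210409E12Rik with the largest rise. Among the other 81 members, 13 were higher and 13 lower (16% each), with a median log2 difference of 0.093.

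Members took 0.926% and 1.04% of the counted reads in WT1 and WT2, and 0.705% and 0.653% in KO1 and KO2. The mean was 0.985% ± 0.0829 in WT and 0.679% ± 0.0368 in KO (SD, n = 2 each). These shares hold 43 members that reached the limit of reads through 1 genotype only, so the difference is a description with no test. Gm8730, Gm15459 and Gm12191 made up most of this gap: without them the shares were 0.744% ± 0.0444 and 0.669% ± 0.0412. The 106 parents together took 7.78% ± 0.375 of the reads in WT and 8.59% ± 0.558 in KO. In bulk RNA, fewer cells that express a gene and less RNA per cell cannot be told apart.

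The largest group by parent was the ribosomal proteins, with 30 members of which 7 were lower, 1 was higher and 22 did not pass the test. The share called was 26.7%, near the 21.7% over all genes tested. Of the lower members, Gm8730, Gm9625, Gm10036 and Gm8210 reached the limit of reads through WT only, so their falls carry no weight as support for a direction. Gm8730, the member with the most reads in all, had 17400 and 23141 reads in WT1 and WT2, and 217 and 211 in KO1 and KO2. Its KO level was 1.06% of WT, a log2 difference of −6.56 ± 0.25 (SE, adjusted p = 2.5e-05). Gm8730 matches Rplp0 (98.7% identity), which builds the stalk of the large ribosomal subunit. Rplp0 itself had 21021 and 28539 reads in WT, and 42783 and 41969 in KO, which was 0.78 ± 0.20 higher (adjusted p = 0.0323). Per length, Gm8730 stood above Rplp0 in WT, at 1186 and 1376 FPKM (fragments scaled to gene length and library size) against 824 and 976, and below it in KO, at 14.6 and 12.6 FPKM against 1653 and 1436. A second copy of Rplp0, Gm9625, fell from 2080 and 2704 reads to 141 and 118 (−4.20 ± 0.23, adjusted p = 0.000123). The sum of Rplp0 and both copies did not pass the test (−0.14 ± 0.21, adjusted p = 0.651).

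Gm12191 and the copies of Rpl29 also moved against their parents. Gm12191, which differs from the large subunit gene Rpl30 at 1 base, had 7523 and 9298 reads in WT and 203 and 1230 in KO (−3.60 ± 0.66, adjusted p = 0.0106). The KO libraries lay far apart, with KO1 the lower of them, and both were below WT. The log2 difference was −5.28 without KO2 and −2.86 without KO1. Rpl30 had 359 and 382 reads in WT and 7909 and 4936 in KO (4.13 ± 0.31, adjusted p = 0.000514), and Rpl30 plus Gm12191 did not pass the test (−0.29 ± 0.23, adjusted p = 0.396). Rpl29, another large subunit gene, had only 45 and 48 reads in WT and 6971 and 7011 in KO (7.23 ± 0.24, adjusted p = 2.04e-05). Its copy Gm8210 fell from 460 and 520 reads to 81 and 41 (−2.99 ± 0.38, adjusted p = 0.00331, and −3.66 without KO1). The other copy, Gm13841, had 1664 and 1688 reads in WT and 822 and 840 in KO (−1.02 ± 0.18, adjusted p = 0.00949). For Gm13841 the call was lost without KO1 (adjusted p = 0.0554) or without KO2 (adjusted p = 0.115). The sum of Rpl29 and both copies was higher in KO (1.83 ± 0.18, adjusted p = 0.00159).

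Gm10036, a copy of Rpl11, fell from 2223 and 2915 reads to 123 and 85 (−4.61 ± 0.28, adjusted p = 0.000179), while Rpl11 did not pass the test (0.13 ± 0.19, adjusted p = 0.639). The abundant copies of Rpl23, Rpl12 and Rpl6 gave a different picture. Gm9794 had 5636 and 7327 reads in WT and 7038 and 6720 in KO, and the genotypes overlapped. Gm10275 had 5167 and 6328 reads in WT and 4594 and 3607 in KO (−0.48 ± 0.22, adjusted p = 0.152). Gm6136 had 3455 and 3736 reads in WT and 4220 and 4271 in KO (0.24 ± 0.18, adjusted p = 0.366). Gm3362 (a copy of Rpl23a) and Gm15500 (Rpl5) were also among the 12 members with most reads, with overlapping genotypes and log2 differences of 0.15 and −0.11. The only ribosomal copy called higher was Gm15710 of Rpl13 (289 and 365 reads in WT, 575 and 544 in KO), whose call was lost when either KO library was left out.

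Among 7 copies of genes for translation factors, 2 were higher and 2 lower. Eif4a-ps4 had the second most reads of all members, with 3712 and 3560 in WT and 12675 and 9133 in KO. Both KO libraries lay above both WT libraries, at a log2 difference of 1.59 ± 0.25 (adjusted p = 0.00642). Its parent Eif4a1, the helicase of the cap-binding complex, rose as well (1.43 ± 0.22, adjusted p = 0.00549), and the copy kept between 15.7% and 19.4% of the reads of the pair in every library. Gm9892, a copy of Eif2s2, rose from 704 and 658 reads to 2371 and 2263 (1.76 ± 0.20, adjusted p = 0.00212). Eif2s2 rose by 1.41 ± 0.21 (adjusted p = 0.0052). Tpt1-ps3, which is identical to the translationally controlled tumor protein gene Tpt1, had 955 and 1262 reads in WT and 553 and 546 in KO (−1.01 ± 0.19), beside −0.93 ± 0.19 for Tpt1 with 25659, 33368, 15341 and 15618 reads in WT1, WT2, KO1 and KO2. Gm13456, a copy of Eef1a1, was lower at −0.89 ± 0.23. The calls of Tpt1-ps3 and Gm13456 were lost when either KO library was left out. Eef2-ps2 had 433 and 555 reads in WT and 443 and 426 in KO and was not called. Of 23 genes listed for translation elongation and protein synthesis, 4 were higher and 2 lower.

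Of 4 copies of listed chaperone and isomerase genes 1 was lower, and of 2 copies of listed ubiquitin and proteasome genes 1 was lower, with no rise in either list. The lower chaperone copy was Gm15459, the member with the most reads in WT after Gm8730. It had 8954 and 11990 reads in WT and 806 and 905 in KO, which was −3.61 ± 0.20 (adjusted p = 0.000124). Its parent Hspa8, the constitutive heat shock cognate, moved the other way, from 10178 and 16031 reads to 46566 and 49440 (1.89 ± 0.23, adjusted p = 0.00271). The sum of Gm15459 and Hspa8 was higher in KO (1.06 ± 0.21, adjusted p = 0.0142). The parents of Gm3375 and Vcp-rs are on no list. Gm3375, a copy of the proteasome catalytic subunit gene Psmb5, fell from 1338 and 1551 reads to 142 and 91 (−3.62 ± 0.29, adjusted p = 0.00064), and Psmb5 rose by 0.95 ± 0.19 (adjusted p = 0.0147). Ubb-ps, the copy of a polyubiquitin gene, fell from 1672 and 2286 reads to 229 and 254 (−3.03 ± 0.20, adjusted p = 0.000303), while Ubb did not pass the test (0.07 ± 0.18). Vcp-rs, related to the segregase gene Vcp, rose from 684 and 967 reads to 1449 and 1573 (0.88 ± 0.19, adjusted p = 0.0177), beside 0.97 ± 0.19 for Vcp, and its call was lost when either KO library was left out. Ptges3-ps (1117 and 1002 reads in WT, 1334 and 1493 in KO) was not called, and neither was Ptges3. Gm10123, identical to the cyclophilin gene Ppia over the aligned length, had 3050 and 943 reads in WT and 3280 and 5398 in KO, and was not called (1.04 ± 0.52, adjusted p = 0.184). It was called higher without WT1 (2.25) and without KO1 (1.30). Of 23 genes listed as chaperones and peptidyl-prolyl isomerases, 9 were higher and 1 lower, and of 25 tested ubiquitin and proteasome genes 7 were higher and none lower.

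**Figure D2:**
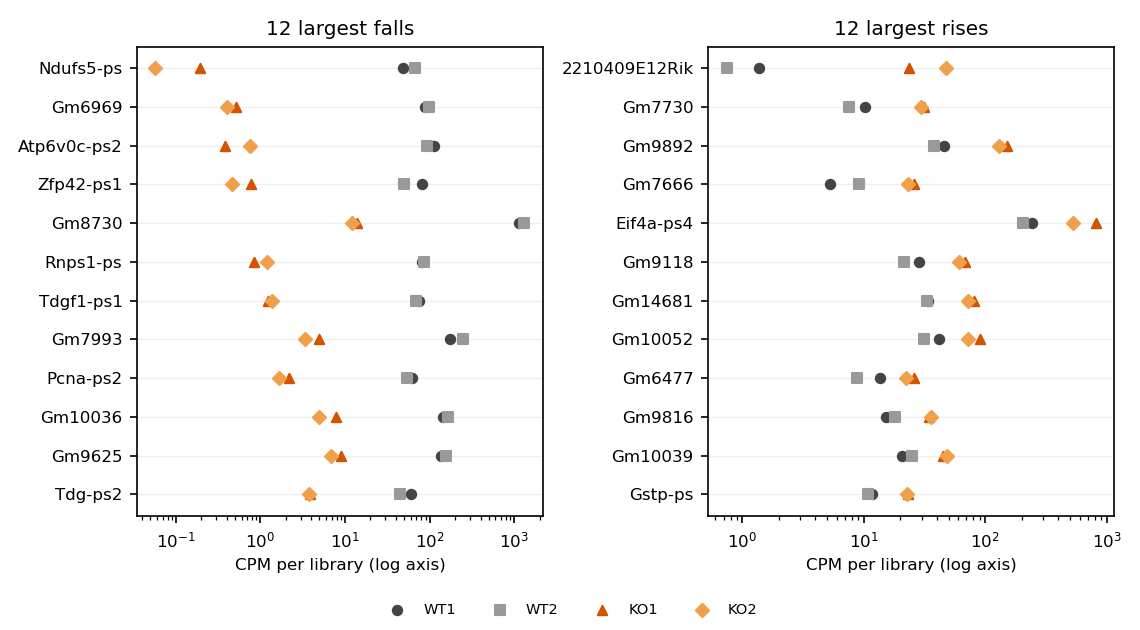
CPM of each library (log x axes) for the 12 members called lower with the largest falls (left) and the 12 called higher with the largest rises (right), with 1 symbol for each of WT1, WT2, KO1 and KO2. In all 24 members the KO symbols lie on 1 side of the WT symbols, and the distance is over 10-fold in each of the falls shown and in 1 of the rises. Every member among the falls shown reached the limit of reads through WT only.

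Mitochondrial copies split in both directions, with 2 higher and 2 lower of 6. Ndufs5-ps showed the largest difference of all members, and it reached the limit of reads through WT only. It had 739 and 1168 reads in WT and 3 and 1 in KO, a ratio of 478 with a 95% counting interval of 186 to 1757 (exact binomial, counting error only). The fitted log2 difference was −8.80 ± 0.45 (adjusted p = 9.03e-05), and between −8.15 without KO2 and −9.80 without KO1. Ndufs5, an accessory subunit of respiratory complex I, had 127 and 253 reads in WT and 995 and 1080 in KO (2.47 ± 0.29, adjusted p = 0.0023), and the sum of the pair did not pass the test (−0.12 ± 0.22, adjusted p = 0.715). The copy thus held 85.3% and 82.2% of the pair's reads in WT, and 0.301% and 0.0925% in KO. Gm12338, identical to the cytochrome c oxidase gene Cox7c, had 538 and 755 reads in WT and 221 and 296 in KO (−1.32 ± 0.23, adjusted p = 0.00879), a call lost without KO1 (adjusted p = 0.0646), while Cox7c rose by 0.85 ± 0.20 (adjusted p = 0.0237). Gm10039, a copy of the ATP synthase gene Atp5g1, rose from 313 and 440 reads to 702 and 835 (1.03 ± 0.21), beside 1.42 ± 0.19 for Atp5g1, and Gm14494, a copy of the import receptor gene Tomm20, rose by 0.84 ± 0.21. The calls of Gm10039 and Gm14494 were lost when either KO library was left out. Of 39 tested genes listed for mitochondrial respiration and transport, 7 were higher and none lower.

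Outside this list, Gm6969 matches Cox7a2l, which takes part in the assembly of respiratory supercomplexes. It fell from 1353 and 1709 reads to 8 and 7 (−7.65 ± 0.29, adjusted p = 2.5e-05), and Cox7a2l did not pass the test (0.11 ± 0.20, adjusted p = 0.717). Atp6v0c-ps2, a copy of the proton channel subunit of the vacuolar ATPase, fell from 1744 and 1632 reads to 6 and 13 (−7.47 ± 0.33, adjusted p = 5.28e-05). In WT it held 61.0% and 60.4% of the reads of the pair. Atp6v0c had 1113 and 1069 reads in WT and 1574 and 1713 in KO (0.58 ± 0.18, adjusted p = 0.0581), and the sum was lower in KO (−0.76 ± 0.18, adjusted p = 0.0245). Ndufa12-ps was not called (337 and 565 reads in WT, 301 and 301 in KO), and Gm7666, a copy of the prohibitin gene Phb, rose from 81 and 161 reads to 400 and 399 (1.74 ± 0.32, adjusted p = 0.0107) beside a rise of Phb by 1.51 ± 0.23.

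Of 9 copies of listed RNA-binding and splicing genes, 2 were higher and 1 lower. The lower one was Gm12183, a copy of the RNA helicase gene Ddx5, with 358 and 558 reads in WT and 220 and 279 in KO (−0.87 ± 0.25, adjusted p = 0.0454), a call lost when either KO library was left out. The parents of Rnps1-ps and Rtraf-ps are on no list. Rnps1 encodes a component of the exon junction complex. Rnps1-ps and Rnps1 had similar reads in WT, 1232 and 1503 for the copy and 1244 and 1465 for the parent. In KO the copy had 13 and 21 reads (−6.33 ± 0.28, adjusted p = 5.28e-05) and the parent 5735 and 5841 (2.10 ± 0.18, adjusted p = 0.000795). The sum of the pair was higher in KO (1.09 ± 0.18, adjusted p = 0.00733). Gm6793, one of 5 copies of Hnrnpa3 and among the 12 members with most reads, had 3256 and 3376 reads in WT and 4809 and 4761 in KO, and did not pass the test (0.52 ± 0.18, adjusted p = 0.0743). Both KO libraries lay above both WT libraries for Gm6793, Gm11847, Gm12960 and Gm8991 but not for Gm5641, and only Gm11847 was called (0.71 ± 0.18), a call lost when either KO library was left out. Gm10052, which shares every 150-base window with Hnrnpa1, rose from 641 and 552 reads to 1399 and 1244 (1.14 ± 0.22, adjusted p = 0.0127, lost without KO1 at 0.0947) beside 0.89 ± 0.22 for Hnrnpa1. Rtraf-ps fell from 377 and 404 reads to 182 and 108 (−1.42 ± 0.34, adjusted p = 0.0235, lost without KO2 at 0.167), while Rtraf was at −0.02 ± 0.20. Of 35 tested genes on the list for RNA binding and splicing, 2 were higher and 1 lower.

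Copies of nucleolar and histone chaperone genes were higher in 4 of 6 cases, with no fall. All 3 copies of Npm1, the abundant nucleolar phosphoprotein, were higher. Gm9118 rose from 436 and 376 reads to 1063 and 1059 (1.37 ± 0.22, adjusted p = 0.00642), Gm14681 from 517 and 584 to 1253 and 1264 (1.19 ± 0.18, adjusted p = 0.00587), and Gm6477 from 210 and 154 to 406 and 384 (1.10 ± 0.29, adjusted p = 0.0348). Npm1 rose from 24377 and 23411 reads to 57539 and 50897 (1.18 ± 0.22, adjusted p = 0.0109). These copies shared few or none of their windows with Npm1 (3.97% for Gm9118, 28.6% for Gm14681 and 0.488% for Gm6477), and none held more than 2.43% of the reads of its pair in any library. Gm4204, a copy of the nucleosome assembly gene Nap1l1, rose from 1367 and 1660 reads to 2688 and 2652 (0.82 ± 0.18, adjusted p = 0.0169). The calls of Gm6477 and Gm4204 were lost when either KO library was left out. Of 18 listed nucleolar and histone chaperone genes, 4 were higher and none lower.

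Copies of high mobility group genes, by contrast, lay below WT in all 5 cases, and 3 were called. Hmgb1-ps2 fell from 614 and 522 reads to 310 and 227 (−1.08 ± 0.28, adjusted p = 0.032), Gm15387 by 1.31 ± 0.23 and the Hmgb2 copy Gm4739 by 1.19 ± 0.25, and all 3 calls were lost without KO2. Gm5518 and Gm5527, the other copies of the chromatin architectural gene Hmgb1, stood at −0.57 ± 0.21 and −0.59 ± 0.23. Hmgb1 (−0.18 ± 0.18) and Hmgb2 (0.19 ± 0.25) did not pass the test. Outside this list, Hdac1-ps, a copy of the deacetylase gene Hdac1, fell from 1338 and 1303 reads to 482 and 480 (−1.47 ± 0.20, adjusted p = 0.00378), while Hdac1 rose from 2657 and 2882 to 7726 and 7360 (1.44 ± 0.19, adjusted p = 0.00337). Tdg-ps2 fell from 922 and 792 reads to 60 and 66 (−3.78 ± 0.26, adjusted p = 0.000352), and Tdg, a glycosylase of base excision repair and DNA demethylation, rose from 565 and 402 to 1657 and 1584 (1.72 ± 0.26, adjusted p = 0.00538). Morf4l1-ps1 was not called (0.38 ± 0.21), although Morf4l1, a chromodomain gene, rose by 1.71 ± 0.21 (adjusted p = 0.0029).

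All 3 copies of genes on the pluripotency-associated list were called lower. All 3 reached the limit of reads through WT only, so these falls carry no weight as support for a direction. Zfp42-ps1 had 1228 and 869 reads in WT and 12 and 8 in KO (−6.72 ± 0.40, adjusted p = 0.000171). Zfp42, also called Rex1 and a marker of naive ES cells, fell too, from 14426 and 12181 reads to 2084 and 2234 (−2.64 ± 0.22, adjusted p = 0.000704). The share of the copy in the pair went from 7.84% and 6.66% in WT to 0.573% and 0.357% in KO. Tdgf1-ps1 fell from 1143 and 1197 reads to 19 and 24 (−5.77 ± 0.26, adjusted p = 5.28e-05), while Tdgf1, the Nodal co-receptor Cripto, was at −0.59 ± 0.18 and did not pass the test (adjusted p = 0.0541). Pdcd5-ps, identical to Pdcd5, fell from 385 and 725 reads to 188 and 221 (−1.42 ± 0.29, adjusted p = 0.0142), and Pdcd5, better known as a gene associated with apoptosis, was at 0.57 ± 0.23 (adjusted p = 0.105). Of 20 genes on this list, 2 were higher and 3 lower.

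Copies of genes for cell division and nucleotide metabolism fell in 2 of 4 cases and rose in 1. The called copies, Pcna-ps2, Gm7993 and Gm7730, each reached the limit of reads through 1 genotype only. Pcna-ps2 fell from 944 and 936 reads to 34 and 29 (−4.90 ± 0.27, adjusted p = 0.000123), and Pcna, the sliding clamp of DNA replication, was at 0.55 ± 0.20 (adjusted p = 0.0813). Gm7993, a copy of Odc1, which makes the first polyamine, fell from 2636 and 4341 reads to 77 and 58 (−5.67 ± 0.31, adjusted p = 0.000123), and Odc1 was at 0.27 ± 0.19. Gm7730 rose from 157 and 133 reads to 487 and 509 (1.76 ± 0.26, adjusted p = 0.00507). It matched Nme2, a nucleoside diphosphate kinase gene, which held only 15 to 31 reads per library. Impdh2-ps had 1754 and 2635 reads in WT and 1820 and 2072 in KO, with overlapping genotypes and a difference of −0.17 ± 0.20. Of 23 genes listed for cell division and nucleotide metabolism, 8 were higher and none lower, beside 11% and 10.7% of all genes tested. The largest of these rises was that of Hprt, with 5 and 6 reads in WT and 2932 and 2710 in KO. Whether WT and KO cells differed in more than Npac was not tested. Outside this list, Sms-ps (0.53 ± 0.27), Nudc-ps1 (−0.85 ± 0.26, adjusted p = 0.0526) and Ndufa12-ps (−0.57 ± 0.26) were not called, while Nudc, a gene of nuclear migration, rose by 1.17 ± 0.24. Nudc-ps1 was lower with the replicate block (adjusted p = 0.00696) and in DESeq2 (adjusted p = 0.0217).

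Of the copies with a parent that fell, 6 fell too and 2 were not called. Besides Zfp42-ps1 and Tpt1-ps3, Gm4735 fell by 2.10 ± 0.25 beside a fall of the enolase gene Eno1b by 2.90 ± 0.23. Gm4735 also matched Eno1, another enolase gene, which rose from 11928 and 16058 reads to 36449 and 32765 (1.32 ± 0.21, adjusted p = 0.0069). Gpx4-ps2 had 1621 and 2253 reads in WT and 1138 and 1156 in KO (−0.75 ± 0.19), beside −0.77 ± 0.19 for Gpx4, which reduces lipid peroxides. Ap2m1-ps had 605 and 900 reads in WT and 434 and 449 in KO (−0.76 ± 0.22) beside −0.86 ± 0.18 for the clathrin adaptor gene Ap2m1. Ctdsp2-ps had 610 and 278 reads in WT and 95 and 59 in KO (−2.55 ± 0.49, and −1.77 without WT1) beside −0.78 ± 0.23 for Ctdsp2. The calls of Gpx4-ps2 and Ap2m1-ps were lost when either KO library was left out, and that of Ap2m1-ps also without WT2. Ncoa4-ps fell by 1.88 ± 0.28 (853 and 603 reads in WT, 201 and 200 in KO), with Ncoa4 at 0.17 ± 0.30. Csnk2a1-ps3 rose by 0.80 ± 0.22 (adjusted p = 0.0402), a call lost when either KO library was left out, with Csnk2a1 at 0.03 ± 0.18. Of the remaining rises with a parent that rose, Gm9816 (a copy of Gps1) rose by 1.08 ± 0.22 and Gstp-ps by 1.02 ± 0.24, both lost when either KO library was left out.

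2210409E12Rik stood apart from the other rises, and it reached the limit of reads through KO only. It had 21 and 13 reads in WT and 369 and 818 in KO (5.07 ± 0.48, adjusted p = 0.0011), and it was the only member at least 10-fold higher. Its best match, Elobl, had 0 and 1 reads in WT and 79 and 115 in KO, a ratio of 193 with a 95% counting interval of 34.3 to 7677. In the coordinates of the files, 2210409E12Rik lies on the same strand as the gene Coil, which encodes the Cajal body protein coilin. Coil rose from 902 and 793 reads to 1913 and 2689 (1.42 ± 0.22, adjusted p = 0.00577). How far reads of Coil entered the count of 2210409E12Rik was not tested.

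Seen over all pairs, 12 lower members had a parent that was higher, 6 a parent that was lower and 21 a parent that was not called. Of the higher members, 12 had a higher parent and 6 a parent that was not called, and none had a lower parent. The 12 oppositely called members had 10 different parents, and for 5 of the 12 the sum of parent and copies was higher in KO, while for 7 it did not pass the test. Among the 12, Gm8730, Gm9625, Gm3375, Rnps1-ps, Ndufs5-ps, Tdg-ps2 and Gm8210 reached the limit of reads through WT only. Over all pairs, 26 of the lower and 5 of the higher calls were of members that entered through 1 genotype. The limit therefore shaped the counts of opposite and of missing reverse calls, which are a description. Among all 104 parents tested, 29 were higher and 8 lower, beside 11% and 10.7% of all genes. Without KO1 these counts were 18 and 3, beside 4.4% and 4.26% of all genes, and without KO2 24 and 2, beside 4.31% and 4.28%. Of 106 sums of a parent with its copies, 23 were higher and 10 lower, beside 10.9% and 10.5% in the whole table of sums. Without KO1 the sums gave 13 higher and 4 lower, and without KO2 19 and 2. The copy's share of the pair's reads was lower in both KO than in both WT libraries for 56 of 122 pairs, higher for 24 and overlapping for 42. For the level of single genes, 32.6% of all genes tested lay below and 33.2% above, and no such share was computed for pairs. The pairs include the 43 members that entered through 1 genotype, and some pairs share a parent, so this split is a description.

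**Figure D3:**
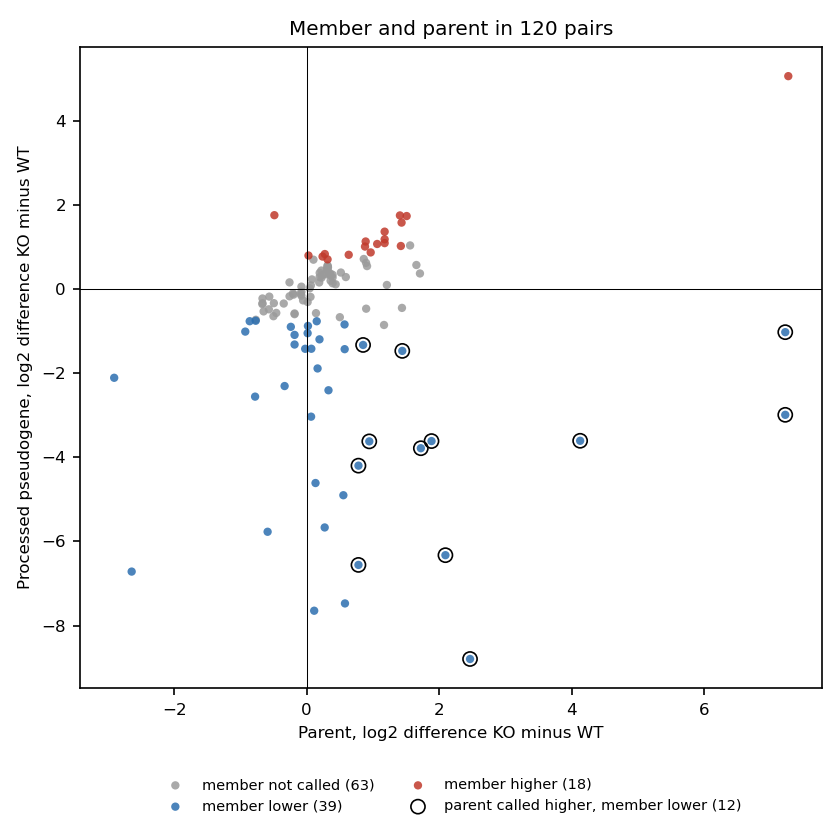
log2 difference, KO minus WT, of the parent (x axis) and of the processed pseudogene (y axis) for 120 pairs in which the parent was tested, 1 point for each pair. The 12 circled pairs at lower right have a member called lower and a parent called higher, and no point at upper left has the reverse calls. Several circled members, Gm8730 and Rnps1-ps among them, reached the limit of reads through WT only.

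The 12 oppositely called copies differed in how many of the pair's reads they held in WT. Gm13841 and Gm8210 with Rpl29, Gm12191 with Rpl30 and Ndufs5-ps with Ndufs5 held at least 82.2% in both WT libraries. Gm9625 held 9% and 8.65% of the reads with Rplp0. In KO the highest share was 19.9%, that of Gm12191 in KO2, and the next was 10.7%, that of Gm13841 in KO2.

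**Figure D4:**
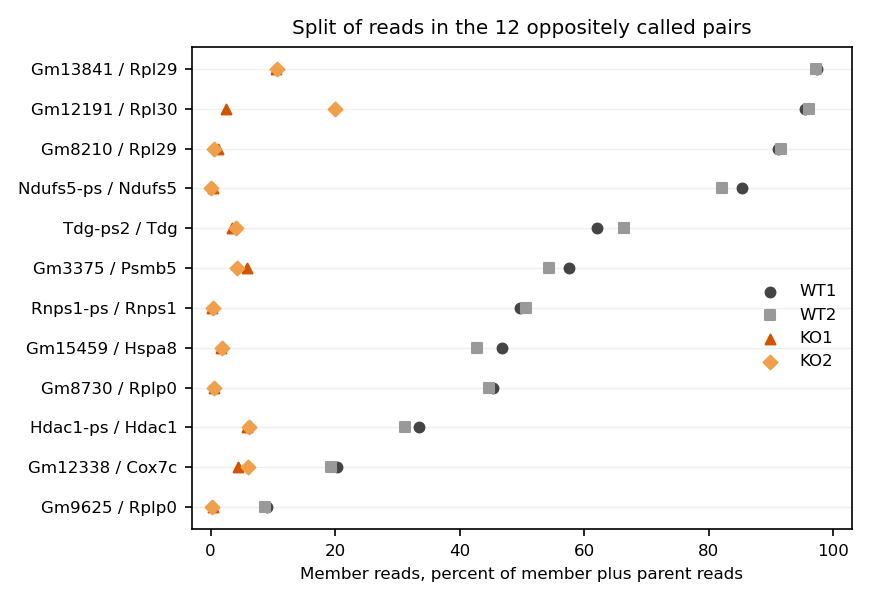
Reads of the copy as a percentage of the reads of copy and parent (x axis) in each library for the 12 pairs with opposite calls (rows), with 1 symbol per library. In every pair both KO symbols lie to the left of both WT symbols, and only Gm12191 has KO libraries that are far apart, at 2.5% and 19.9%. The pairs were chosen by their opposite calls, so the lower share in KO is a description.

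Read-length identity to the parent varied widely. A copy's 150-base windows were compared with all transcripts of the parent, and a window found there in full cannot be assigned by its sequence. Of 23 members with every window shared, 1 was higher and 3 lower (17.4% called). This is near the 21.7% called over all genes tested and is no result about these members. Of 42 members with 50% to under 100% shared, 9 were higher and 14 lower (54.8% called). Of 33 members with 10% to under 50%, 4 were higher and 13 lower (51.5%), and of 24 with under 10%, 4 were higher and 9 lower (54.2%). In these groups Gm8730, Zfp42-ps1, Ndufs5-ps and Atp6v0c-ps2, among others, reached the limit of reads through WT only. The limit therefore shaped these counts, which are a description. The 4 called members with every window shared were Gm10052, Pdcd5-ps, Gm12338 and Tpt1-ps3. No member with every window shared differed by more than 1.42 on the log2 scale, whereas Gm8730 shared 2.61%, Zfp42-ps1 0%, Ndufs5-ps 38.2% and Atp6v0c-ps2 64.9% of the windows. Replicates also differed widely for Gm10241, which is identical to Sumo2. It had 692 and 1951 reads in WT and 659 and 2186 in KO. Where the copy was high the parent was low, since Sumo2 had 2004 and 461 in WT and 4682 and 1098 in KO.

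**Figure D5:**
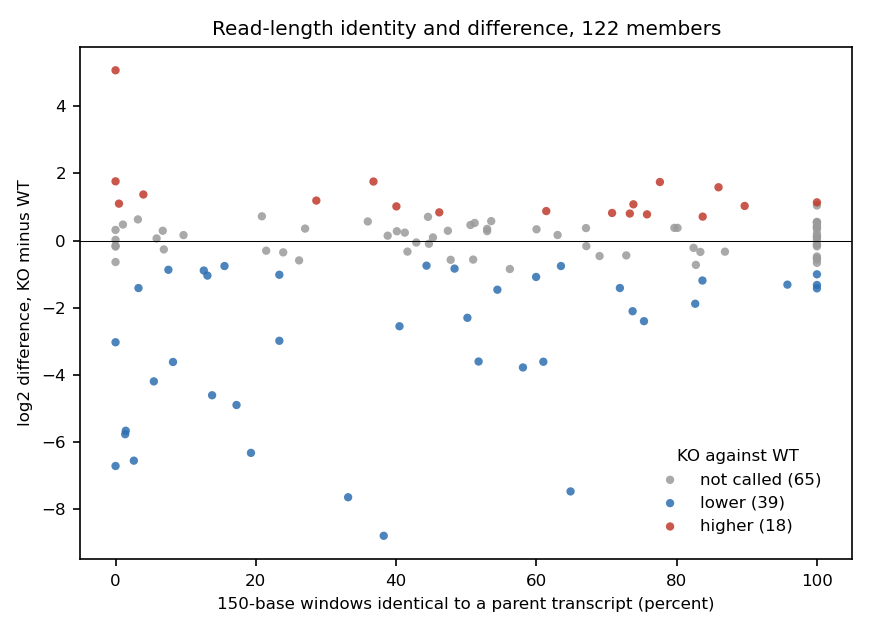
Share of a copy's 150-base windows found in a parent transcript (x axis, percent) and log2 difference of the copy, KO minus WT (y axis), for 122 members colored by call. The members at 100% lie between −1.42 and 1.14, while the falls below −2 spread from 0% to 75.3%. Several members with such falls, Zfp42-ps1 and Atp6v0c-ps2 among them, reached the limit of reads through WT only.

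Members lay on every autosome and on X. The genes of chromosomes 8 and 11 had median log2 differences of 0.507 and 0.508 in KO1 and 0.517 and 0.483 in KO2, against −0.202 to −0.00405 for any other autosome. The 18 members on chromosomes 8 and 11 gave 4 higher and 4 lower (44.4% called, beside 21.7% of all genes tested). The 102 on other autosomes gave 12 higher and 34 lower (45.1%). With the chromosome medians removed, the counts over all members were again 18 and 39, with 4 members losing and 4 gaining the call. The calls lost were those of Gm10039 on chromosome 11 (0.54, adjusted p = 0.110), Ap2m1-ps (−0.72, adjusted p = 0.0541), Gm9824 (−0.68, adjusted p = 0.0501) and Gm10110 (−0.72, adjusted p = 0.0828). The calls gained were those of Impdh2-ps (−0.68, adjusted p = 0.0491), Nudc-ps1 (−1.36, adjusted p = 0.0140), Gm9531 (0.65, adjusted p = 0.0491) and Gm45855 (−0.81, adjusted p = 0.0235). On chromosome 8 Gm9892 and Gm7730 stood at 1.25 each and Gm8730 at −7.07. On chromosome 11, 2210409E12Rik stood at 4.58 and Gm12191 at −4.09. In the coordinates of the files, 37 members overlapped another gene, 29 of them a protein-coding gene, and reads of overlapping genes on opposite strands cannot be told apart unless counting used the strand, which is not given in the sources used here. Of these 37, 7 were higher and 11 lower (48.6% called). Of the 87 without an overlap, 11 were higher and 28 lower, a similar share (44.8%). Ndufs5-ps lay within Zbtb20, which was not called (−1.02 ± 0.41, adjusted p = 0.115), and Gm12191 within Cnot6 (0.39). The 15 members annotated as transcribed held 2 higher and 3 lower (33.3% called). The groups by chromosome, overlap and annotation all hold members that reached the limit of reads through 1 genotype, so their counts are a description.

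The libraries held 15850805 to 16965120 counted reads. The targeted gene Glyr1 had 3961 and 3115 reads in WT and 744 and 888 in KO (−2.14 ± 0.23, adjusted p = 0.00174). log2 CPM correlated at 0.967 between the WT libraries, at 0.983 between the KO libraries and at 0.892 to 0.911 across genotypes. All 10 ES cell markers were tested, with a summed level of 3927 to 4587 FPKM per library, 1 higher (Klf2) and 1 lower (Zfp42). Fibroblast markers summed to 11 to 18.2 FPKM with 2 of 8 at 0 in every library, endoderm markers to 3.63 to 5.72 and neural markers to 29.0 to 37.4. Trophectoderm markers summed to 16.6 and 13.1 FPKM in WT and 47.2 and 40.9 in KO, with 1 of 5 tested called (Tfap2c). Of 15 tested genes that act in retrotransposition or retroelement silencing, 1 was higher (Apobec3, a cytidine deaminase that restricts retroelements, 0.91 ± 0.18) and none lower. The part of these differences in the values of the pseudogenes was not tested.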

How the data were processed

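RNA-seq of 2 WT and 2 Npac KO libraries of E14 cells was analysed from the tables of the whole series. The authors deposited read counts per gene without normalization and FPKM values made from the same counts and the gene length. The submitters' processing notes name CASAVA, HISAT2 2.0.5, featureCounts 1.5.0-p3 and mm10, while the coordinates of the deposited table equal those of GENCODE vM21 (GRCm38) for 1524 of 52125 shared genes, so no coordinates are given here. The handling of strand and of reads with several matches is not given in the sources used here. The members, lists and tests were chosen with earlier results of these data known.

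Libraries were grouped by the genotype in the labels. Counts were tested in edgeR 4.0.16 (R 4.3.3) with the quasi-likelihood test, TMM factors and Benjamini-Hochberg adjustment over all 18157 genes that passed edgeR's filter at a minimum count of 10, and all 124 members passed. A call needed an adjusted p below 0.05 and a fold change over 1.5, the thresholds of the study. CPM used the TMM-scaled totals. Family sums replaced a parent and its members by 1 row in the same test. The fits were tested on simulated counts. Parents were found with blastn 2.17.0, and stretches aligned with Biopython 1.88. Alternatives were DESeq2 1.42.0, RLE factors, other filters and limits of reads, limma 3.58.1 on log2(FPKM + 1) and log2(FPKM + 0.1), removal of chromosome medians, a replicate block and leaving out each library, where the lone library left was assumed to vary like the other genotype. Depth was similar across libraries, with 15850805 to 16965120 counted reads, and intervals cover counting error only. The text names the 12 members with most reads, the 12 largest rises and falls called, members whose symbol names a parent, oppositely called pairs, members next to the limit, and genes overlapping these. Some genes and sequences these rules select are not reported here. Another 23 members were named after their values were seen.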

Additional observations from a re-analysis of the deposited data

Results flagged for a closer look

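For 6 members that were not called, KO1 lay above and KO2 below both WT libraries or the reverse, and the difference between the KO lines was not tested. The log2 difference from the WT mean was 0.30 in KO1 and −0.034 in KO2 for Gm3362, a copy of Rpl23a. For Gm10241, identical to Sumo2, it was −0.89 in KO1 and 0.69 in KO2. It was 0.19 and −0.26 for 2810025M15Rik, which has no matched parent, 0.57 and −0.39 for Gm15501, and 0.36 and −0.17 for Gm10146, a copy of Lsm7. For Gm11585, a copy of Ppih and 1 of the members nearest to the limit of reads, it was 0.058 and −0.45.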

How the results depend on the processing

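Direction and call held for most members. Most lost calls came from the fits without a KO library, and these fits also called a smaller share of all genes tested. DESeq2 called 18 members higher and 41 lower, RLE factors 18 and 39, and the deposited FPKM 19 higher with 38 or 39 lower. With a replicate block, 22 members were higher and 44 lower, 32 parents higher and 10 lower, and 26 sums higher and 11 lower. Same-numbered libraries share only a number, and their deviations correlated at 0.332. A limit of 2000 reads left 68 members, with 11 higher and 22 lower, by fewer members counted. Without the members that match a ribosomal protein gene, an alternative chosen after seeing the data, 17 were higher and 32 lower. Leaving out 1 library gave 8 to 25 higher and 25 to 45 lower members, a median log2 difference of −0.26 to −0.049, 18 to 36 higher and 2 to 12 lower parents, and 13 to 28 higher and 2 to 13 lower sums. The cause was not tested. Over the 59 members that the naming rule selects and 23 others named, 884 of 980 values over all alternatives kept direction and call, 53 lost and 29 gained the call. A further 14 values changed direction, all of members not called. With 1 library left out, Gm11585 ranged from −0.46 to 0.074 (highest without KO2), Gm15500 from −0.38 to 0.18 and Impdh2-ps from −0.38 to 0.040 (both highest without WT2), Gm3362 from −0.042 to 0.32 (lowest without KO1) and Gm9794 from −0.031 without KO1 to 0.22, with −0.023 without WT1. Gm10241 ranged from −0.87 without KO2 to 0.89 without WT2, where it was called higher (adjusted p = 0.00347), with −0.43 without WT1. Gm6284 ranged from −1.67 without WT2, where it was called lower (adjusted p = 2.66e-07), to 0.53 without WT1. Gm15501 ranged from −0.40 to 0.58 and Gm10146 from −0.17 to 0.37 (both lowest without KO1), and 2810025M15Rik from −0.27 to 0.21 (highest without KO2), with 0.18 without WT2 and 0.030 with chromosome medians removed.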
